A study of Mus musculus with 90 samples.

Results

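Lactoferrin (Ltf), lipocalin 2 (Lcn2), complement component 3 (C3), mucin 1 (Muc1), WAP four-disulfide core domain 2 (Wfdc2), secretory leukocyte peptidase inhibitor (Slpi) and the polymeric immunoglobulin receptor (Pigr) are secreted or shed by epithelia that line wet surfaces, and they were followed here as a group of estrogen-induced genes of the uterine epithelium. The members were taken by their Entrez Gene identifiers, and all 7 are among the 20414 genes of the deposited expression matrix. RNA was sequenced from 15 tissues of wild-type C57BL/6 female mice (C57BL/6J in the study's methods), 3 libraries in estrus and 3 in diestrus for each tissue and 90 in all. The phase was read from vaginal cells stained with methylene blue, and no library came from a treated or mutant animal. The study also measured serum estrogen and progesterone to help assign phases, and reports estrogen higher in estrus and progesterone higher in diestrus. The mice were 10 weeks old by the sample labels and 8 weeks old by the study's methods. The methods speak of 3 mice for each phase, but the labels do not say which tissues came from the same mouse. The matrix does not name its unit. Its values were read as FPKM (fragments scaled by transcript length and by the mapped fragments of the library), since RSEM gives such values and the library sums, 353706 to 623534, differ from each other and from those of TPM. Levels between genes are set side by side on that reading.

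Estrogen made by the growing follicles acts through estrogen receptor alpha in the endometrium, where the luminal and glandular epithelium responds with growth and with secretion into the lumen. The secreted proteins cover the surface and limit microbes. Lactoferrin withholds iron, lipocalin 2 captures the siderophores with which bacteria gather iron, C3 is the centre of the complement cascade, and the polymeric immunoglobulin receptor carries dimeric IgA across the cell. Mucin 1 is a transmembrane mucin of the apical glycocalyx, while Wfdc2 and Slpi belong to the WAP domain proteins, many of which inhibit proteases. Lactoferrin and C3 are long-used readouts of estrogen in the rodent uterus. Several of the members are also made elsewhere: C3 by hepatocytes, Ltf and Lcn2 by maturing neutrophils.

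The 250 bases before the annotated start of transcription (RefSeq, GRCm38.p6) are shown for the 4 members with the largest phase difference in uterus, and they were searched for the core element GGTCA, paired copies of which estrogen receptor binds. Capitals mark GGTCA or its reverse complement TGACC, sequences read 5′ to 3′ on the strand of the gene.

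Ltf, chr9:111019042-111019291, plus strand: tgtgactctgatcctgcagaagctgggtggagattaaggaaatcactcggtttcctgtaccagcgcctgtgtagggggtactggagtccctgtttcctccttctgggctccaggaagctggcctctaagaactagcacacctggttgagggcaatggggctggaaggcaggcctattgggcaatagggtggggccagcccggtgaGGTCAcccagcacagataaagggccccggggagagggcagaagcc

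C3, chr17:57228137-57228386, minus strand: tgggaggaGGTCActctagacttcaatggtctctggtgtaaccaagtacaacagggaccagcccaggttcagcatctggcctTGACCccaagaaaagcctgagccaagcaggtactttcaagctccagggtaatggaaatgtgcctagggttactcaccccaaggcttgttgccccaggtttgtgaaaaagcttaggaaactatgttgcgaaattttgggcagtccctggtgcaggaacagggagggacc

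Pigr, chr1:130826434-130826683, plus strand: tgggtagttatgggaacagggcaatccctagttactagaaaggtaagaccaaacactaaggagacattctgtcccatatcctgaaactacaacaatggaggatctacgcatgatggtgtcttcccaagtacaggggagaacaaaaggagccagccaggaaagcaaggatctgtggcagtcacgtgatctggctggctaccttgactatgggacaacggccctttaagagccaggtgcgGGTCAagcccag

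Lcn2, chr2:32387740-32387989, minus strand: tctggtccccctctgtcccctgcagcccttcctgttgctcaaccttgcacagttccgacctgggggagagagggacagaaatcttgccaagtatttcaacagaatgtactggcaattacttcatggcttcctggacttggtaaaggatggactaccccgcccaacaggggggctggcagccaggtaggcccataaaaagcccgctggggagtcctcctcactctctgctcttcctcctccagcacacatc

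The core element was found on either strand in the windows of 3 of the 7 members, at 45 bases before the start in Ltf, at 242 and 168 bases in C3 and at 12 bases in Pigr. Among all 27025 RefSeq promoters, 34.9% of the windows of 250 bases held it. The full palindrome GGTCANNNTGACC, which holds the core element on both arms, was in 0 of the 7 windows and in 0.0629% of all promoters. The windows of Lcn2, Muc1, Wfdc2 and Slpi held no core element. These matches describe letters in a short window only, and more distant elements were not searched.

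The identity of the uterine libraries was checked first. The 18 markers of simple epithelium were all present, with Epcam, an adhesion molecule of epithelial cells, between 83.07 and 197.45 FPKM. Estrogen receptor alpha (Esr1) lay between 41.86 and 70.78 FPKM. One library stood apart: estrus replicate 3 had the highest value for 17 of the 18 squamous epithelium markers and for 11 of the 12 markers of ciliated and oviduct epithelium. The squamous markers summed to 188, 129 and 5048 FPKM in estrus and to 32.7, 33.6 and 12.9 FPKM in diestrus, so the sum was higher in every estrus library, with 12 of 13 genes tested positive and a median log2 fold change of 2.14. In estrus replicate 3 the oviduct markers summed to 3994 FPKM against 187 to 331. The oviduct glycoprotein Ovgp1 was at 2554.37 FPKM there and at most 126.1 elsewhere. Estrus replicate 1 had the highest sum of smooth muscle markers, 5999 FPKM against 1276 to 3810. The part of the other epithelia or of muscle in the results was not tested.

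In uterus, Ltf, Lcn2, C3 and Pigr had the largest differences between the phases, with mean FPKM 4.86 to 20.7 times higher in estrus, while Wfdc2 had a lower mean in estrus and Slpi was close to the lower limit of the analysis. The libraries of a phase differed widely among themselves, and 0 of the 7 members passed the limits for a call, which were an absolute log2 difference no smaller than 1 together with an adjusted p (limma) no larger than 0.05. The background was 0% of the 13705 genes tested in uterus, so these 6 libraries called no gene at all. Without adjustment, 3 members (Ltf, Lcn2 and Pigr) and 512 genes, 3.74% of those tested, had p under 0.05. In bulk tissue, fewer epithelial cells and less RNA per cell cannot be told apart.

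Ltf (Entrez Gene 17002) was at 1117.12, 291.87 and 1042.75 FPKM in the 3 estrus libraries and at 138.48, 307.78 and 7.96 FPKM in the 3 diestrus libraries. The means were 817 ± 457 FPKM in estrus and 151 ± 150 FPKM in diestrus (SD, n = 3 each). Estrus replicate 2 lay just below diestrus replicate 2, so the groups overlapped, and the diestrus values alone spanned 38.7-fold. The log2 fold change, estrus minus diestrus on the scale of log2(FPKM + 1), was 3.26 (SE 1.28, adjusted p = 0.897, limma). It fell to 1.75 when diestrus replicate 3, the library with the lowest Ltf, was left out.

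Lcn2 (Entrez Gene 16819) had the largest mean difference, 1804 ± 1967 FPKM in estrus against 87.0 ± 96.1 FPKM in diestrus. Estrus replicates 1 and 3 were at 3989.27 and 1245.37 FPKM, above every diestrus library. Estrus replicate 2, at 176.59 FPKM, was below diestrus replicate 1 at 194.7 FPKM. The log2 fold change of 4.26 (SE 1.36) stayed between 3.18 and 5.48 when any one library was left out.

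C3 (Entrez Gene 12266) had its highest value, by far, in a single library. Estrus replicate 1 was at 2719.08 FPKM and the other two estrus libraries at 60.05 and 298.17 FPKM, against 44.75, 96.39 and 44.02 FPKM in diestrus. The estrus values spanned 45.3-fold and the diestrus values 2.19-fold. The log2 fold change of 2.65 (SE 1.25) became 1.21 without estrus replicate 1 and 3.95 without estrus replicate 2.

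Pigr (Entrez Gene 18703) was the only member whose phases did not overlap in uterus. It was at 305.73, 63.3 and 201.27 FPKM in estrus and at 41.11, 48.66 and 27.59 FPKM in diestrus, with a log2 fold change of 2.02 (SE 0.57, adjusted p = 0.897, limma). Of all genes tested in uterus, 3.24% were higher in estrus without overlap and 4.67% were lower, so 1 of 7 members is a small number to read against that background. The lowest estrus library was again replicate 2. The value was 2.67 without it and 1.54 without estrus replicate 1.

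Muc1, Wfdc2 and Slpi differed less. Muc1 was at 389.49 FPKM in estrus replicate 1, while its other 5 values lay between 44.13 and 92.06 FPKM, and its log2 fold change of 1.00 (SE 0.64) came to 0.27 without that library. Wfdc2 was at 1059.29, 1035.9 and 321.73 FPKM in estrus and at 1105.28, 1430.41 and 502.88 FPKM in diestrus. Its log2 fold change was -0.39 (SE 0.57), and it turned to 0.18 when estrus replicate 3, the library rich in squamous and oviduct markers, was left out. Slpi reached only 1.58 to 4.4 FPKM in estrus and 1.22 to 2.45 FPKM in diestrus (log2 fold change 0.40, SE 0.39), and its log2 fold change was 0.16 without estrus replicate 3 and 0.33 without estrus replicate 1. Muc1 came to 1.43 without estrus replicate 3, and Wfdc2 to -0.68 without estrus replicate 1. Direction was positive for 6 of the 7 members, where 42.7% of all genes tested were positive.

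**Figure D1:**
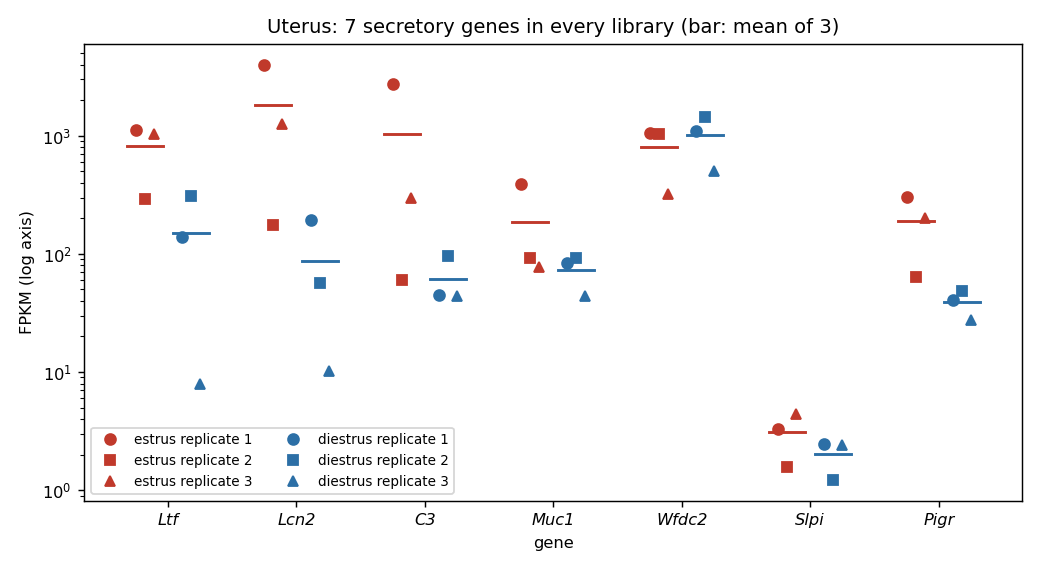
FPKM on a log axis of the 7 genes in each of the 6 uterine libraries, estrus in red and diestrus in blue, with the marker shape giving the replicate number and a bar at the mean of 3. Estrus replicates 1 and 3 lie above the diestrus libraries for Ltf, Lcn2, C3 and Pigr, whereas estrus replicate 2 lies among or near them. Wfdc2 shows no such separation.

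The order of the libraries was shared by several members. Estrus replicate 1 was the highest of the 6 for 5 members and among the 2 highest for 6, and estrus replicate 3 was among the 2 highest for 5. Estrus replicate 2 was among the 2 highest for 0 members. Diestrus replicate 3 was the lowest library for 5 members. As a comparison, 15.5% of the genes tested had their highest value in estrus replicate 1 and 25.5% in estrus replicate 3. The lowest value was in diestrus replicate 3 for 14.2%.

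Leaving out single libraries changed how many members separated the phases. Without estrus replicate 2, 5 of the 7 members (Ltf, Lcn2, C3, Slpi and Pigr) were higher in estrus without overlap, beside 12.3% of genes tested. The number was 3 without diestrus replicate 2 (beside 8.19% of genes) and 2 without diestrus replicate 1 (beside 6.24%). It was 1 without estrus replicate 1 (beside 9.34%), without estrus replicate 3 (beside 4.59%) and without diestrus replicate 3 (beside 5.59%), and in the last case Wfdc2 was lower in estrus without overlap, beside 7.18% of genes. The median log2 fold change over the members, 2.02 with all libraries beside -0.07 over all genes tested, ranged from 1.21 without estrus replicate 1 to 2.67 without estrus replicate 2. None of these fits called a member.

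The call did depend on where the estimate of the spread came from. In one fit of all 90 libraries, which takes the spread of each gene from all tissues together, 4 members were called in uterus by limma: Lcn2 (adjusted p = 6.35e-05), Pigr (adjusted p = 0.00886), C3 (adjusted p = 0.00963) and Ltf (adjusted p = 0.0133). The same fit called 912 of the 13705 genes, or 6.65%. Muc1 (adjusted p = 0.308), Slpi (adjusted p = 0.772) and Wfdc2 (adjusted p = 0.829) were not called. That fit assumes that a gene varies between uterine libraries as it does within the other tissues. Under it the standard error fell from 1.28 to 0.95 for Ltf and from 1.36 to 0.78 for Lcn2, and rose from 0.57 to 0.93 for Wfdc2 and from 0.39 to 0.74 for Slpi.

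Other estrogen-responsive genes of the uterus gave a similar picture. Of the 31 genes of that list in the matrix, all were tested, 24 had a positive log2 fold change and 0 were called, with a median of 0.80. Without overlap, 4 were higher in estrus and 0 were lower, beside 3.24% and 4.67% of all genes tested in uterus. The summed level was 14595, 3532 and 10833 FPKM in estrus and 4850, 2254 and 970 FPKM in diestrus, which repeats the low position of estrus replicate 2. Sprr2f, a small proline-rich protein of the epithelial surface and the most abundant of the list, was at 8454.31, 1108.94 and 5522.35 FPKM in estrus and 2198.52, 840.53 and 77.85 FPKM in diestrus (log2 fold change 2.82, SE 1.28). The surface antigen Cd24a followed with a log2 fold change of 0.80 (SE 0.57). Sprr2d was at 3652.71 FPKM in estrus replicate 3 and at most 17.57 FPKM in any other library.

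Receptor genes did not pass the limits either: 0 of the 4 receptors tested were called, and 1 had a positive log2 fold change. Esr1 had means of 57.6 ± 14.2 FPKM in estrus and 61.7 ± 8.56 FPKM in diestrus (log2 fold change -0.12, SE 0.27). The progesterone receptor Pgr was at 11.58 and 10.25 FPKM in estrus replicates 1 and 3 but at 68.77 FPKM in estrus replicate 2, within the diestrus range of 32.71 to 98.67 FPKM.

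The families and partners of the members were read in the same 6 libraries. Among complement genes, 24 of 38 were tested, 16 had positive log2 fold changes and the median was 0.15. Factor B (Cfb), which joins C3 in the alternative pathway convertase, was at 321.77, 53.68 and 88.17 FPKM in estrus and 35.7, 64.17 and 25.3 FPKM in diestrus (log2 fold change 1.55, SE 0.68). Clusterin (Clu), an inhibitor of the terminal complex, had a log2 fold change of 0.73 (SE 0.41). As with C3, Cfb was highest in estrus replicate 1.

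Among partners of the iron-binding members, 10 of 12 were tested and 8 had positive log2 fold changes. Lrp2 (megalin), an endocytic receptor that takes up lipocalin 2, went the other way without overlap, at 0.26, 4.13 and 1.81 FPKM in estrus and 14.7, 54.57 and 81.02 FPKM in diestrus. Its log2 fold change was -3.98 (SE 0.73), and it did not pass the adjusted limit (adjusted p = 0.897, limma). The iron exporter Slc40a1 (ferroportin) had a log2 fold change of 1.51 (SE 1.05) with 280.99 FPKM in estrus replicate 1 and at most 40.62 FPKM elsewhere. Slc22a17, a receptor for lipocalin 2, had a log2 fold change of 0.33 (SE 0.52).

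The relatives of Muc1 and the partners of Pigr were read next. Of 5 mucin genes tested, 4 had positive log2 fold changes, with a median of 1.58. Of the 5, 2 were higher in estrus without overlap, beside 3.24% of all genes tested. Muc4, a second membrane mucin of the uterine surface, was at 91.12, 10.68 and 19.38 FPKM in estrus and 10.36, 7.27 and 1.25 FPKM in diestrus (log2 fold change 2.23, SE 0.89). The sialomucins Cd164 and Emcn had log2 fold changes of 0.02 and -1.18. Jchain, which joins the IgA that Pigr carries, was lower in estrus without overlap, at 7.38, 8.85 and 8.6 FPKM against 36.75, 12.16 and 11.56 FPKM (log2 fold change -0.99, SE 0.44). The plasma cell marker Sdc1 and the IgG receptor Fcgrt had log2 fold changes of 0.19 and 0.11.

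The WAP domain relatives of Wfdc2 and Slpi were scattered. Of the 9 tested, 4 had positive log2 fold changes, and the median was -0.11. Wfdc18 was at 536.28 FPKM in estrus replicate 3 and at most 8.88 FPKM in any other uterine library. Wfdc1 was lower in estrus without overlap, with means of 12.4 ± 5.38 and 52.1 ± 36.5 FPKM (log2 fold change -1.85, SE 0.51), and Wfdc15b had a log2 fold change of -0.11 (SE 1.06). Slpi and Wfdc2 both lie on chromosome 2, with 7 protein-coding genes between them in the RefSeq annotation.

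Acute-phase and leukocyte genes were set beside the members because Lcn2, C3 and Ltf also belong to those settings. Of 11 acute-phase genes tested, 10 had positive log2 fold changes, with a median of 0.73. Ceruloplasmin (Cp) was higher in estrus without overlap, at 58.27, 17.66 and 22.47 FPKM against 11.46, 10.69 and 6.3 FPKM (log2 fold change 1.54, SE 0.47), while Nfkbia and haptoglobin (Hp) had log2 fold changes of 0.53 and 0.13. Neutrophil markers summed to 30.6, 34.2 and 209 FPKM in estrus and to 26.3, 23.6 and 19.15 FPKM in diestrus. These sums did not overlap, all 9 markers tested had positive log2 fold changes, and the median was 0.92, with 0 called. Among them, Ly6g was nearly unchanged and overlapped, at 6.43, 4.03 and 2.43 FPKM in estrus and 4.97, 6.47 and 1.87 FPKM in diestrus. Estrus replicate 3 was highest for 13 of the 19 markers above 0. The part of neutrophils in the uterine values of Ltf and Lcn2 was not tested.

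The remaining cell type lists were read for the same libraries, each with 0 genes called. Simple epithelium summed to 4005, 2855 and 3584 FPKM in estrus and 3290, 3668 and 1516 FPKM in diestrus, the last being diestrus replicate 3, where 5 members were lowest. Its most abundant genes, Krt19, Spint2 and Cldn3, had log2 fold changes of 0.35, 1.10 and -0.88. Endometrial gland markers summed to 139 to 436 FPKM in estrus and 332 to 819 FPKM in diestrus, and macrophage markers to 112 to 425 and 169 to 235 FPKM. Stroma markers summed to 557 to 2442 and 984 to 2147 FPKM. Of these, 3 of 9 genes were lower in estrus without overlap, beside 4.67% of all genes tested. Mammary markers summed to 1272 FPKM in estrus replicate 3 and to at most 42.7 FPKM elsewhere. Most of the sum in estrus replicate 3 came from Krt5, Krt14 and Wfdc18, which other lists also hold. The milk protein gene Csn2 was at 0.06 FPKM in diestrus replicate 1 and at 0 in all other uterine libraries. How far these cell types take part in the differences of the members was not tested.

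**Figure D2:**
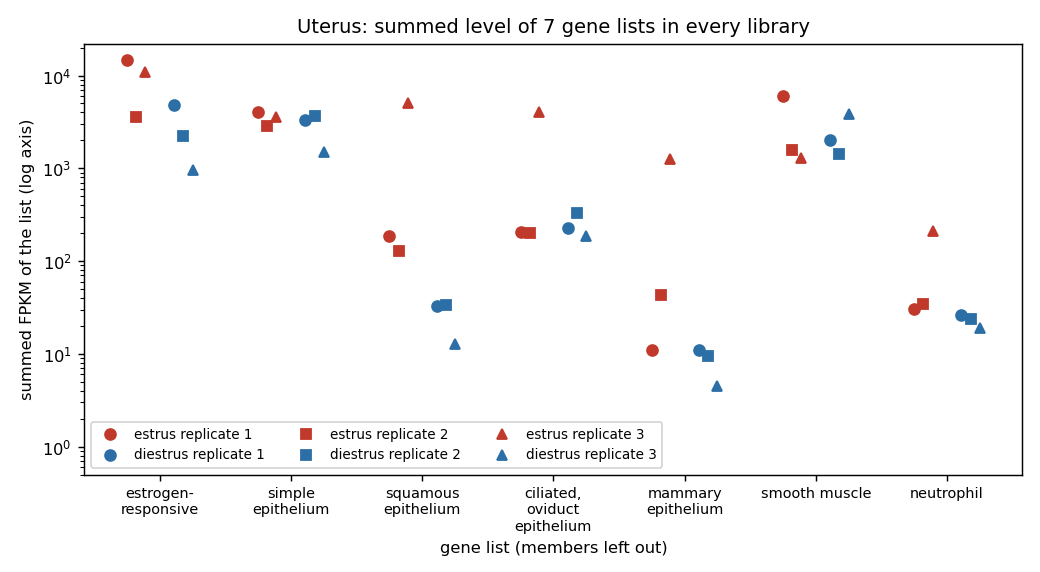
Summed FPKM of 7 gene lists in the 6 uterine libraries on a log axis, estrus in red and diestrus in blue, with the marker shape giving the replicate number and the members left out of the sums. Estrus replicate 3 stands above the others for squamous, oviduct, mammary and neutrophil markers, at 5048, 3994, 1272 and 209 FPKM. The estrogen-responsive sum is highest in estrus replicates 1 and 3 and lowest in diestrus replicate 3, at 970 FPKM.

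Across the 15 tissues, uterus had the highest mean of Ltf, Lcn2 and Wfdc2 and not of the other 4 members. C3 was highest in liver, Muc1 in stomach, Slpi in spleen and Pigr in duodenum. Tissue levels are means ± SD of the 6 libraries of a tissue, both phases together, and tissues are called separate where their 6 values do not overlap. The library BAT estrus replicate 3 lists 12048 genes at 0 against 2404 to 4820 in the other 89 libraries, and 5 of the 7 members are at 0 in it, so low values in BAT carry little weight.

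Ltf was at 484 ± 475 FPKM in uterus, 16.0 times its mean of 30.2 ± 69.6 FPKM in ovary. Aorta (16.1 ± 39.1 FPKM), spleen (15.5 ± 17.5), stomach (4.46 ± 5.02) and duodenum (1.46 ± 1.52) followed, and the other 9 tissues had means between 0.005 and 0.402 FPKM. The ranges of neighbours in this order overlapped from uterus down to cerebrum, and only cerebrum and heart, the last pair, were separate. The means of ovary and aorta came from 1 library each, as described below for those tissues, and their medians were 1.95 and 0.11 FPKM.

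Lcn2 reached 945 ± 1560 FPKM in uterus, 13.7 times the mean of liver (68.8 ± 109 FPKM). Spleen (33.8 ± 35.3 FPKM) and ovary (24.0 ± 45.2) came next, and the other 11 tissues had means of 0.83 to 6.84 FPKM. Each tissue overlapped its neighbour in the order. Liver owed its place to estrus replicate 3, at 290.94 FPKM against 12.37 to 33.09 FPKM in the other 5 libraries. In that liver library 15 of 25 acute-phase genes were at their highest, with hemopexin (Hpx) at 4653.76 FPKM against 1977.88 to 2393.34 FPKM, and C3 was at 3968.37 FPKM against 2332.83 to 2889 FPKM. Of the 19 neutrophil markers above 0 in liver, 14 were highest in it too, with a sum of 33.6 FPKM against 17.9 to 20.7 FPKM, and the part of either in the Lcn2 value was not tested.

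C3 was at 2807 ± 598 FPKM in liver, 4.67 times vein (602 ± 163 FPKM) and separate from it. WAT (586 ± 152 FPKM), uterus (544 ± 1070), aorta (455 ± 217), BAT (278 ± 52.7) and spleen (245 ± 21.5) formed a run in which neighbours overlapped. The mean of uterus rests on estrus replicate 1, and its median of 78.2 FPKM is below all spleen libraries, which lay between 208.39 and 265.6 FPKM. Heart, ovary, stomach, skeletal muscle, duodenum and kidney had means of 8.27 to 44.2 FPKM. Hypothalamus (1.90 ± 0.48 FPKM) and cerebrum (0.277 ± 0.17 FPKM) were each separate from the tissue before.

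Muc1 was at 456 ± 122 FPKM in stomach, 3.51 times uterus (130 ± 128 FPKM), with overlap through estrus replicate 1 of uterus. Both were followed by kidney at 20.1 ± 11.5 FPKM, which was separate from uterus. Duodenum (10.6 ± 24.8 FPKM), ovary (3.93 ± 7.44), aorta (2.78 ± 4.11) and hypothalamus (1.07 ± 0.28) overlapped in turn, and the other 8 tissues had means of 0.538 to 0.887 FPKM. Wfdc2 was at 909 ± 414 FPKM in uterus, 3.62 times kidney (251 ± 42.5 FPKM), where the lowest uterine value of 321.73 FPKM just met the highest kidney value of 322.86 FPKM. Stomach (46.7 ± 23.5 FPKM) was separate from kidney. Aorta, ovary and duodenum had means of 10.4 to 28.6 FPKM with medians of 0.62 to 1.64 FPKM, liver had 5.24 ± 1.78 FPKM, BAT 1.42 ± 1.41 FPKM, and the other 7 tissues 0.065 to 0.875 FPKM.

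Slpi was led by spleen (67.7 ± 20.3 FPKM) and stomach (65.5 ± 89.8 FPKM), which did not separate. Duodenum (13.4 ± 6.25 FPKM), aorta (8.66 ± 14) and uterus (2.55 ± 1.16) followed, then WAT, vein, liver and ovary with means of 1.01 to 2.02 FPKM and 6 tissues with means of 0.0233 to 0.613 FPKM. Pigr was at 1780 ± 462 FPKM in duodenum, 4.36 times liver (408 ± 48.2 FPKM), and both were separate from their next neighbour. Stomach (143 ± 115 FPKM) and uterus (115 ± 113 FPKM) overlapped, and kidney (19.4 ± 4.37 FPKM) was separate from uterus. Of the rest, aorta to WAT had means of 1.56 to 5.91 FPKM, and hypothalamus, cerebrum and skeletal muscle 0.235 to 0.307 FPKM.

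**Figure D3:**
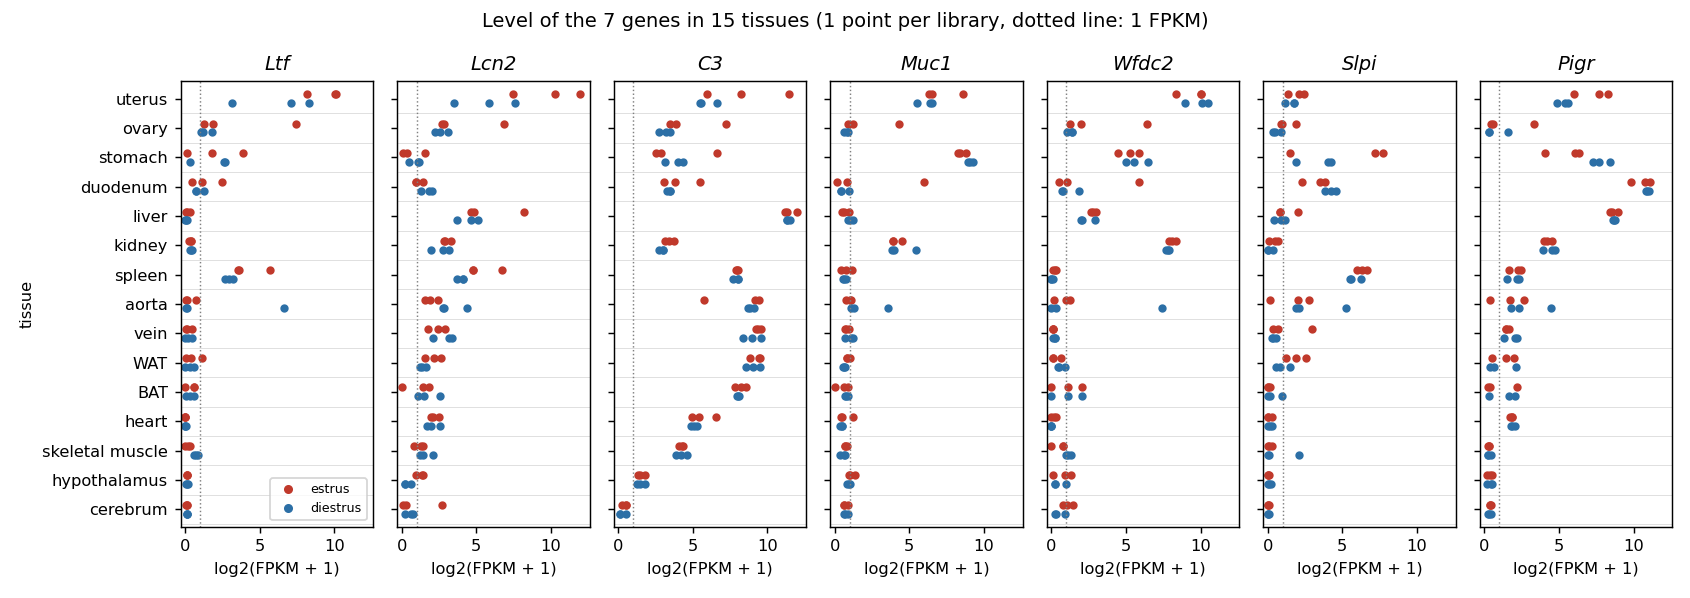
Level of each of the 7 genes as log2(FPKM + 1) in the 15 tissues, 1 point per library, estrus in red and diestrus in blue, with a dotted line at 1 FPKM. Uterus is the highest tissue for Ltf, Lcn2 and Wfdc2, and single libraries of ovary, aorta, duodenum and liver lie far to the right of the other 5 of their tissue.

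Genes with the most similar profile over the 15 tissue means were looked up for each member by Pearson's r of log2(FPKM + 1), among the 17289 genes whose mean reached 1 FPKM in some tissue. They describe these tissue means only, which share libraries with the members. For Ltf the nearest were Padi4 (r = 0.96), Gtf2f2 (0.95) and Utf1 (0.95), all 3 highest in uterus, for Lcn2 Cyp21a1 (0.91), Serpina1e (0.88) and Il17rb (0.82), and for C3 Lrg1 (0.91), Tlr5 (0.91) and Hp (0.90), all 3 highest in liver. For Muc1 they included Macc1 (0.97) and Sprr1a (0.97), for Wfdc2 Plet1 (0.96), Tfcp2l1 (0.96) and Elf5 (0.95), for Slpi Ly6d (0.96), Hpse (0.95) and Ifng (0.95), and for Pigr Epha1 (0.96), Akr1c12 (0.95) and Akr1c19 (0.94). Between members, r was highest for Muc1 with Wfdc2 (0.83) and for Ltf with Lcn2 (0.76), and lowest for C3 with Muc1 (-0.16).

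Within the 6 uterine libraries, the 10 genes closest to Ltf by the same measure were Oard1, Arhgap40, Elovl7, Brms1, Urah, Myo5c, Sftpd, Mob2, Zfp943 and Ptpn18, with r from 0.97 to 0.98. With 6 libraries and 13705 genes high values can be found by search alone, and they are given as a description. Sftpd, the collectin surfactant protein D, was at 295.43, 38.2 and 100.63 FPKM in estrus and 38.49, 54.02 and 1.23 FPKM in diestrus. Among the members, Lcn2 had r = 0.88 with Ltf (rank 186), Pigr 0.84 (rank 313), Muc1 and C3 0.69, Slpi 0.30 and Wfdc2 0.13.

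In the other 14 tissues, 62 of the 98 pairs of a member and a tissue reached a mean of 1 FPKM and were tested. None was called by limma within its tissue, beside 2 of 171764 tests over all genes (0.00116%), and 11 pairs, beside 8.17% of all tests, had an unadjusted p under 0.05. Pairs without overlap of the phases numbered 4 with estrus higher and 4 with estrus lower, where 5.85% and 9.68% of all tests were in those classes. The 8 pairs were C3 in ovary and kidney, Ltf and Lcn2 in spleen, Lcn2 in aorta, Muc1 and Pigr in stomach, and Slpi in duodenum.

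In ovary, one library stood above the rest. Estrus replicate 3 was the highest of the 6 for all 7 members, a position that 28.7% of the genes tested in ovary shared. Ltf was at 172.27 FPKM in it and at 1.06 to 2.73 FPKM in the other 5, Wfdc2 at 82.55 against 1.11 to 2.94 FPKM, and Lcn2 at 116.29 against 3.65 to 7.62 FPKM. Muc1 was at 19.1 FPKM in it and at 0.53 to 1.35 FPKM in the others, Pigr at 8.95 against 0.23 to 2.05 FPKM, and Slpi at 2.72 against 0.29 to 0.97 FPKM.

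C3 in ovary was at 13.58, 10.31 and 149.78 FPKM in estrus and 8.31, 5.78 and 9.97 FPKM in diestrus. Its log2 fold change of 1.72 (SE 0.92) was 0.54 without estrus replicate 3, with the phases still apart, beside 22.2% of genes higher in estrus without overlap among the remaining 5 libraries. With all 6 libraries, 8.13% of the genes tested in ovary were higher without overlap. The median over the members fell from 1.5 with 7 members tested to 0.28 with the 4 that still reached 1 FPKM without that library.

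In the same ovary library all 12 markers of ciliated and oviduct epithelium were highest, with a sum of 2017 FPKM against 38.3 to 98.2 FPKM. Ovgp1 was at 1562.57 FPKM against 2.35 to 39.7 FPKM, and Foxj1, the regulator of motile cilia, at 60.39 against 0.1 to 2.31 FPKM. Simple epithelium markers summed to 693 FPKM against 95.9 to 143 FPKM, with 17 of 18 highest there, among them Krt18 at 108.68 FPKM. The gland marker list summed to 67.8 FPKM against 1.04 to 3.44 FPKM. Neutrophil markers did not follow, with 19.8 FPKM against 17.0 to 21.4 FPKM and S100a8 listed at 0. The part of oviduct or uterine tissue in this library was not tested.

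The aorta showed the same kind of pattern in the opposite phase. Diestrus replicate 3 was the highest library for 6 of the 7 members, beside 18.5% of the genes tested. Wfdc2 was at 168.61 FPKM in it and at 0 to 1.36 FPKM in the other 5, Ltf at 95.9 against 0.06 to 0.64 FPKM, and Slpi at 36.99 against 0.1 to 5.88 FPKM. Pigr was at 21.18 FPKM against 0.3 to 5.32 FPKM and Muc1 at 11.16 against 0.71 to 1.43 FPKM.

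Lcn2, lower in estrus without overlap in aorta like 9.54% of the genes tested there, was at 1.93, 2.74 and 4.5 FPKM in estrus and at 6.06, 5.78 and 20.01 FPKM in diestrus. Its log2 fold change of -1.35 (SE 0.50) was -0.82 without diestrus replicate 3, with the phases still apart. C3 did not join the pattern: its low value of 51.73 FPKM was in estrus replicate 1, and the other 5 libraries had 420.17 to 676.4 FPKM. That estrus library also had the highest sum of smooth muscle markers, 16786 FPKM against 2545 to 3752 FPKM.

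In aorta diestrus replicate 3 the simple epithelium list summed to 185 FPKM against 28.8 to 107 FPKM, with 16 of 18 genes highest there. The mammary list summed to 355 FPKM against 1.44 to 3.22 FPKM. Most of that was Glycam1, a mucin-like secretory gene of mammary gland and of lymph node venules, at 337.4 FPKM against at most 0.14 FPKM. Of the milk protein genes, Csn2 was at 0.25 FPKM in this library and at 0 in the others, and Wap was listed at 0 in every aorta library. The cilium gene Dynlrb2 was at 15.71 FPKM against at most 0.17 FPKM, and the basal keratin Krt15 at 29.16 against at most 0.1 FPKM. Macrophage markers summed to 544 FPKM against 95.2 to 284 FPKM and neutrophil markers to 35.0 against 12.2 to 22.8 FPKM. Hepatocyte markers lay within the range of the other libraries. The part of these cells in the values of the members was not tested.

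In spleen, Ltf and Lcn2 were higher in estrus without overlap, as were 3.09% of the genes tested there. Ltf was at 11.12, 50.78 and 10.76 FPKM in estrus and 5.28, 8.06 and 6.74 FPKM in diestrus (log2 fold change 1.36, SE 0.54, adjusted p = 0.930, limma). Lcn2 was at 26.81, 104.66 and 26.91 FPKM against 12.03, 16.04 and 16.21 FPKM (log2 fold change 1.47, SE 0.49). Estrus replicate 2 was highest for both, and without it the log2 fold changes were 0.65 and 0.83.

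Neutrophil markers moved with them. All 20 were tested in spleen, 19 had a positive log2 fold change, 15 were higher in estrus without overlap (beside the 3.09% of all genes), and 0 were called, with a median of 0.90 beside -0.01 for all genes. Their sum was 542, 1617 and 520 FPKM in estrus and 234, 355 and 355 FPKM in diestrus, and estrus replicate 2 was highest for 17 of the 20. The granule gene Ngp was at 390.75 FPKM there against 39.64 to 106.37 FPKM. C3, Slpi and Pigr had log2 fold changes of 0.03, 0.52 and 0.10 in spleen. The part of neutrophils in the values of Ltf and Lcn2 was not tested.

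In stomach, Muc1 and Pigr were lower in estrus without overlap, as were 12% of the genes tested there. Pigr was at 80.47, 67.38 and 15.89 FPKM in estrus and 157.36, 334.83 and 199.9 FPKM in diestrus, a log2 fold change of -2.28 (SE 0.65, adjusted p = 0.671, limma) that was -1.56 without estrus replicate 3. Muc1 was at 330.16, 452.33 and 301.5 FPKM against 497.46, 535.31 and 617.69 FPKM (log2 fold change -0.62, SE 0.20). In the one fit of all 90 libraries Pigr in stomach was called (adjusted p = 0.00656, limma), one of 2 pairs outside uterus beside 1.26% of tests. The other was Muc1 in duodenum, whose estrus mean comes from replicate 1.

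Slpi in stomach followed another order, at 213.43, 1.86 and 141.3 FPKM in estrus and 17.94, 15.72 and 2.69 FPKM in diestrus. The squamous markers, which mark the forestomach, summed to 17043, 470 and 31042 FPKM in estrus and 3812, 1717 and 218 FPKM in diestrus. Both were high in estrus replicates 1 and 3. Of these 18 markers, 17 had a positive log2 fold change and 0 were called, and the cornified layer gene Krtdap was the most abundant, at 11169.6 FPKM in estrus replicate 3 and 0.41 FPKM in diestrus replicate 3. Pigr was lowest in estrus replicate 3, where the squamous sum was highest. In estrus replicate 2, with a squamous sum of 470 FPKM, Pigr was at 67.38 FPKM, also below every diestrus value. The share of forestomach in each sample was not tested.

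In duodenum, where 22.1% of the genes tested were lower in estrus without overlap, Slpi was the only member of that kind, at 3.89, 10.23 and 13.35 FPKM against 13.5, 22.28 and 17.42 FPKM (log2 fold change -0.99, SE 0.42). It was -0.53 without estrus replicate 1. That library also had Muc1 at 61.3 FPKM against 0.14 to 0.91 FPKM and Wfdc2 at 56.91 against 0.45 to 2.62 FPKM, and it had the lowest Pigr, 894.33 FPKM against 1747.4 to 2164.72 FPKM. Its smooth muscle markers summed to 2743 FPKM against 325 to 791 FPKM, Sprr1a was at 229.01 FPKM against 0.93 to 3.94 FPKM, and Epcam was at 243.53 against 571.33 to 620.67 FPKM. The part of tissue sampled around the duodenum was not tested.

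In kidney, where 4.25% of the genes tested were higher in estrus without overlap, C3 was at 9.42, 8.01 and 12.67 FPKM in estrus and 5.65, 6.94 and 6.95 FPKM in diestrus, a log2 fold change of 0.54 (SE 0.17, adjusted p = 1.00, limma) that stayed between 0.37 and 0.67 when any one library was left out. Wfdc2, the member with the highest level in kidney, had means of 279 ± 43.4 FPKM in estrus and 223 ± 18.4 FPKM in diestrus with overlap (log2 fold change 0.31, SE 0.13). Complement genes in kidney had a median log2 fold change of -0.02 over 22 tested. No marker list of another cell type separated the kidney libraries by phase in its sum.

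**Figure D4:**
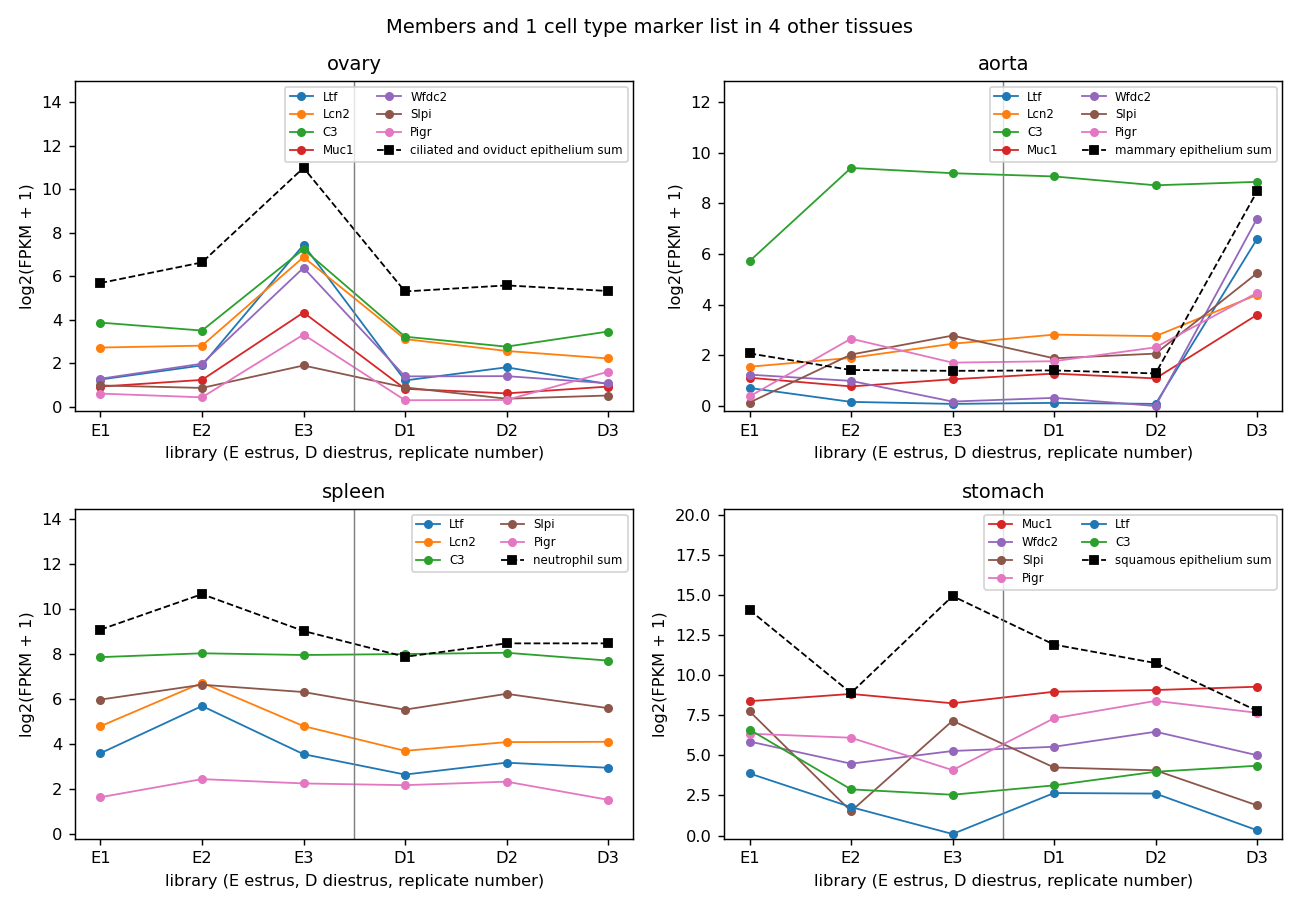
Members as coloured lines and the sum of one cell type marker list as a dashed black line, both as log2(FPKM + 1), in the 6 libraries of ovary, aorta, spleen and stomach. Ovary estrus replicate 3 and aorta diestrus replicate 3 raise nearly all members together with the marker sum, spleen estrus replicate 2 raises Ltf and Lcn2, and Slpi in stomach follows the squamous sum.

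The phase difference in uterus was then set against that in each other tissue in fits of 12 libraries. Of the 98 pairs of a member and a tissue, 36 did not reach 1 FPKM in the other tissue and entered such a fit through uterus alone. Their differences set the uterine value against that of a gene below the filter. They are left out below unless all 98 pairs are named. Of the other 62 differences of differences, 49 were positive, that is the estrus excess was larger in uterus, where 43.0% of the tests over all genes with the same filter were positive.

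Lcn2 was positive against 12 of 12 tissues (median 4.003 on the log2 scale), C3 against 13 of 13 (2.46), Pigr against 11 of 11 (2.18) and Ltf against 5 of 5 (2.83). Muc1 was positive against 4 of 6, Slpi against 2 of 8 and Wfdc2 against 2 of 7. All comparisons use the same 6 uterine libraries and are not independent of each other. Some pairs reached the filter only through a single library of the other tissue. Among them were Ltf and Wfdc2 in aorta (diestrus replicate 3) and Muc1, Pigr and Slpi in ovary (estrus replicate 3).

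None of the 62 was called by limma, beside 0% of 193273 tests over all genes. The lowest adjusted p of a member was 0.578 (limma), for Lcn2 and Pigr against BAT, where low values carry little weight as described above. Against the other tissues the lowest was 0.836 (limma), against heart. Without adjustment, 20 had p under 0.05 (9 for Pigr, 8 for Lcn2 and 1 each for Ltf, Muc1 and Slpi), beside 4.48% of all tests with the same filter. That of Ltf was against aorta, where Ltf passed the filter through diestrus replicate 3 alone (95.9 FPKM against 0.06 to 0.64 FPKM). The count also includes Lcn2 and Pigr against BAT. In the one fit of all 90 libraries 13 of these 62 were called, 8 of them for Lcn2, 3 for Pigr and 1 each for C3 and Ltf. Over all 98 pairs that fit called 14, beside 3.32% of all 193273 tests. Neither of the last counts needs the filter to be passed in both tissues. A larger phase difference in uterus was therefore called only where the spread was taken from all tissues.

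**Figure D5:**
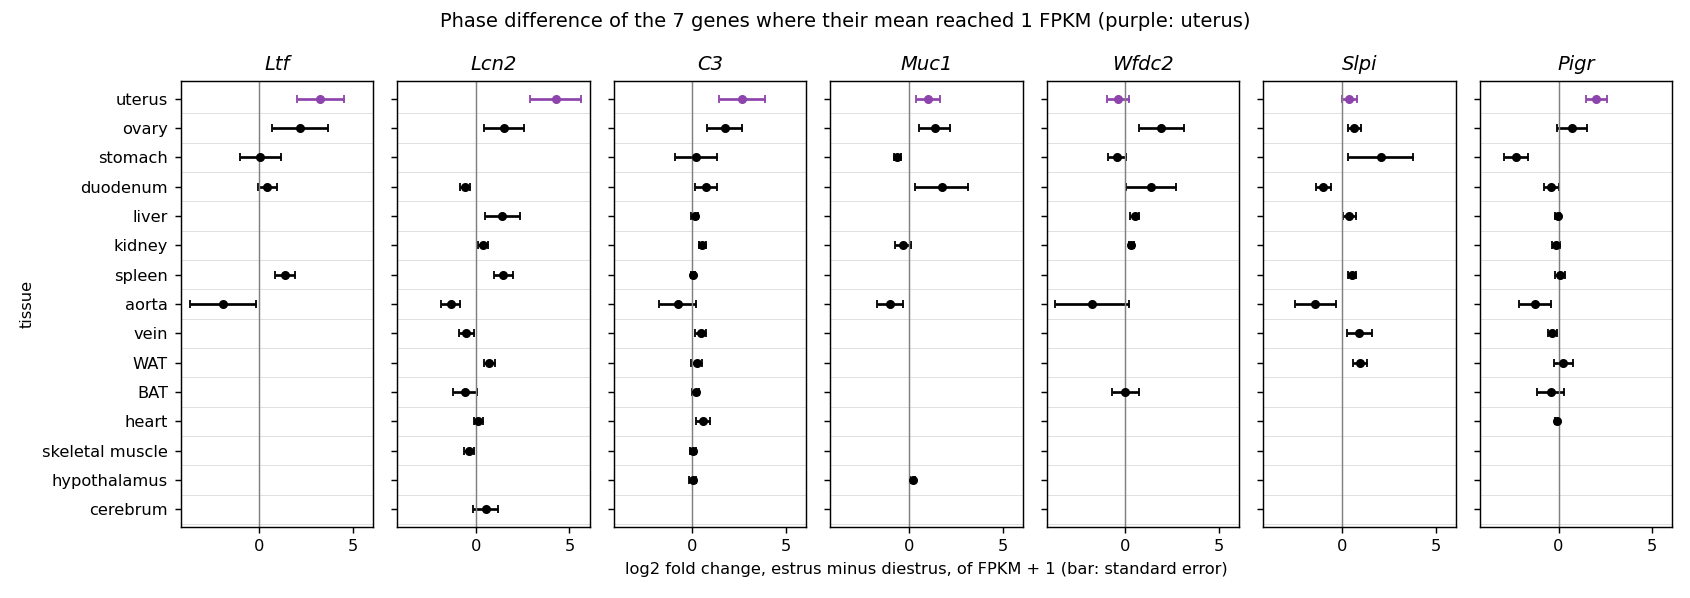
Log2 fold change, estrus minus diestrus, of the 7 genes in each tissue where the mean over 6 libraries reached 1 FPKM, with standard errors and uterus in purple. The uterine values of Ltf, Lcn2, C3 and Pigr, 3.26, 4.26, 2.65 and 2.02, lie furthest to the right for each gene, with standard errors of 0.57 to 1.36.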

How the data were processed

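RNA-seq libraries of 15 tissues were compared between estrus and diestrus. The authors filtered reads with SOAPnuke, aligned them with Bowtie2 2.2.5 to GRCm38.p5 and estimated abundance with RSEM 1.2.8. They deposited values read here as FPKM, without a named unit, counts or totals. The paper gives only an approximate read number per sample. The exact depth of each library is therefore unknown here, and low values cannot be given a counting error. The submitters' test needs counts and was not used. Genes were named by Entrez identifier through the RefSeq table of GRCm38.p6 (20265 of 20414 named). Tissue, phase and replicate number came from the labels.

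Each tissue was tested with limma 3.58.1 (R 4.3.3, intensity trend, no block, Benjamini-Hochberg over all genes tested) on log2(FPKM + 1), keeping genes whose mean over its 6 libraries reached 1 FPKM, a scale that understates changes of low genes. Calls needed an absolute log2 difference no smaller than 1 together with an adjusted p no larger than 0.05. An exact permutation test of 3 against 3 libraries cannot go below p = 0.1. The procedure was tested on simulated data. Phase differences were compared between uterus and each other tissue by an interaction term. Alternatives were the pseudocount, the filter, median scaling, the trend, one fit of all libraries, a replicate block, the adjusted p alone and single libraries left out. Deviations of same-numbered estrus and diestrus libraries were correlated over 0.1 for every replicate in 0 of 15 tissues. Single correlations reached 0.47, in stomach replicate 1. Named companions are the 3 most abundant genes of each list in the tissue. A few genes that this rule or the search for similar profiles named are not reported here. Single markers beyond these were chosen after their values were seen, and the members and lists were chosen with earlier results of these data known. Other computations used Python 3.11.15, numpy 2.4.6 and pandas 2.3.3, and plots matplotlib 3.10.9.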

Additional observations from a re-analysis of the deposited data

How the results depend on the processing

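The number of members called in uterus was 0 in the main test and under a pseudocount of 0.1, no filter on low values, median scaling, no trend, the limit on the adjusted p alone and the omission of any one library (0 to 0 members). It was 4 in one fit of all 90 libraries. The number called in the other 14 tissues was likewise 0 (0 to 0 with a library left out) and became 2 in that fit, and the number of phase differences called between uterus and another tissue went from 0 to 14 of 98, 13 of them among the 62 where the member passed the filter in both tissues. With the replicate number as a block, 0 members were called in uterus and 0 elsewhere, and this pairing changed no call of a member. The numbers were not taken as pairs, and the correlations of same-numbered libraries cannot exclude pairing in some tissues. Over all genes and all 15 tissues, 2 calls were made in the main test, 5 with the block, 1 without the filter, 1 to 99 with a library left out, and 3084 in the one fit. The median log2 fold change of the members in uterus, 2.02, was 1.21 to 2.67 with a library left out. Wfdc2 in uterus turned from -0.39 to 0.18 without estrus replicate 3 and ranged down to -0.83 with another library left out. Of the other values for single genes, 174 kept direction and side of the limits and 5 passed them, all 5 in the one fit. With no counts deposited, low values of Slpi in uterus, of Ltf outside 6 tissues and of BAT estrus replicate 3 cannot be given a counting error.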
